A study of Mus musculus with 6 samples.

Results

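The cytosolic ribosomal protein genes encode the protein parts of the ribosome that translates nuclear messages. They were taken by symbol from the protein-coding genes of GENCODE release M21 (Rpl and Rps followed by a number, Rplp0 to Rplp2, and Rpsa), which leaves out the Rps6k kinases. This gave 83 genes among 55335 identifiers, 51 of the large subunit and 32 of the small subunit. The low-count filter passed 81 of them, 49 large and 32 small. The 2 genes that did not pass were Rpl10l, which had no count in any library, and Rpl39l, which had 3, 7 and 0 counts in the control libraries and 7, 2 and 0 in the overexpression libraries. Rpl3l passed with 10 to 24 counts per library, and the other 80 genes reached at least 1 CPM (count per 1000000 counts of the library) in every library. Among the genes that the symbol rule leaves out are the fusion gene Fau, the ribosome-bound scaffold Rack1, and the copies Rpl36al and Rps27rt.

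The samples were striatum of C57 mice, the part of the basal ganglia that receives cortical and thalamic input, and total RNA had been sequenced. The controls were 3 samples labelled wild type, and the other group was 3 samples whose genotype is labelled as overexpressing PDE5A, an enzyme that degrades cyclic GMP. The sources used here do not give the means of overexpression, any treatment of the controls or the age of the mice. The labels do not say that the samples came from separate animals, so p-values refer to the spread among the 6 samples, and that spread may be technical.

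A ribosome carries about equal numbers of nearly all its proteins, and cells make the proteins of both subunits together. Most mammalian ribosomal protein messages begin with a C followed by a run of pyrimidines, the 5′ terminal oligopyrimidine (TOP) motif, through which the kinase mTOR and the RNA-binding protein Larp1 set how much of the message is translated and kept. In neurons they are abundant in the cell body and are also found in processes. A change in translation through the TOP motif need not be visible in total message, which is what these libraries measure.

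The symbol rule did not use sequence, so runs of C or T near the annotated start sites were counted apart from it. Such runs could lie before or after the start. Whether a message begins with a C and a run, as in the TOP motif, was not tested. RefSeq promoter windows on GRCm38.p6 (the mm10 assembly) were matched by symbol for 63 of the 83 genes, and 16514 protein-coding genes had a window. Within the 50 bases on either side of the start, the longest run of C or T on the coding strand had a median of 10 bases in the ribosomal protein genes and 6 bases over all protein-coding genes. A run of at least 8 bases was present in 50 of the 63 genes (79.4%) and in 34.7% of all windows, and a run of at least 10 bases in 40 (63.5%) and in 17.5% of all. The sequences below, 10 bases before and 20 bases from the annotated start, show genes with and without such a run among those named in the results, with the longest run of C or T in capitals.
Rps6, chr4:86857348-86857377, minus strand: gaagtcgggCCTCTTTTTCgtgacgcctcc
Rps27, chr3:90213629-90213658, minus strand: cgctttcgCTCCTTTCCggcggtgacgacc
Rplp2, chr7:141447641-141447670, plus strand: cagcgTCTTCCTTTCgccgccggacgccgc
Rps15a, chr7:118116128-118116157, minus strand: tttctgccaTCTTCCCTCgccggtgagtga
Rpl22l1, chr3:28805498-28805527, plus strand: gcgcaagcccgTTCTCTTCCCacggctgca
Rps27l, chr9:66946076-66946105, plus strand: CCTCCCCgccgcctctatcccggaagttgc
Rps2, chr17:24720053-24720082, plus strand: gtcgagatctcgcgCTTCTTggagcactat
Rpsa, chr9:120127756-120127785, plus strand: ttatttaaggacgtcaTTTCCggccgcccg
In Rps6, Rps27, Rplp2 and Rps15a the run covers the annotated start. In Rpl22l1 it lies just downstream, and in the paralog Rps27l it ends upstream of the start. Rps2 and Rpsa hold only short runs in these 30 bases, and the windows depend on which start RefSeq lists. For Rps2 the window lies well inside the GENCODE gene (chr17:24718116-24721929). The windows of Rps6, Rplp2, Rps15a, Rpl22l1 and Rpsa also lie inside the GENCODE bounds of their genes. None of these windows shows whether the first GENCODE base of its gene has a run.

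Other short motifs were counted in the whole 300-base windows, on either strand. The polypyrimidine-like hexamer CTTTCC was present in 30 of the 63 genes (47.6%) and in 26.0% of all windows. CCGGAAGT, the core that ETS-family factors such as GABP recognise, was present in 12 (19.0%) and in 5.52% of all. The GC box GGGCGG was found in 38 (60.3%, against 48.0%) and the TATA hexamer TATAAA in 6 (9.52%, against 12.9%). These are matches of letters and not measured binding sites.

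The targeted gene matched the labels: Pde5a had 156, 170 and 246 counts in the controls and 30018, 23287 and 22170 in the overexpression libraries, a log2 fold change of 7.20. Library totals ran from 33013698 (overexpression replicate 2) to 42288789 counts. The striatal label was matched by the medium spiny neuron markers, whose 16 genes summed to 5369 to 9438 CPM in the controls and 4575 to 9269 CPM in the overexpression libraries. Choroid plexus markers stood apart by library. Their 14 genes summed to 323 to 455 CPM in the controls and to 923, 3479 and 319 CPM in overexpression replicates 1, 2 and 3, and none of them was at 0 in any library. Lymphocyte and infiltrating myeloid markers summed to 52.1 to 80.9 CPM and 64.2 to 94.7 CPM, with Gzmb at 0 in every control. Of these 14 genes 11 were tested. All 11 had a positive fold change (50.6% of all genes tested), with a median of 1.84 (log2). Of the 11, 6 had an unadjusted p under 0.05 (3.89% of all). Mean log2 CPM of the 11 did not overlap between the groups, at -1.31 to -0.09 in the controls and 0.72 to 1.05 in the overexpression libraries. Genes near 0 in the controls, such as Cxcr6 (0.12 to 0.27 CPM) and Cd3g (0.05 to 0.17 CPM), could pass the low-count filter through the overexpression libraries alone. The signs, the median and the lack of overlap are therefore partly set by the filter and are no test of a difference. With edgeR 0 genes of these or the other marker lists were called, and with DESeq2 2 were, Prkcd of the thalamic and Cxcr6 of the lymphocyte list. Median log2 fold changes were 3.13 for the choroid plexus markers, -0.20 for 10 astrocyte markers, 0.21 for 10 microglia markers, -0.47 for 10 thalamic markers, 0.40 for 10 cortical glutamatergic markers, -0.10 for 10 oligodendrocyte markers, -0.07 for 10 endothelial and mural markers and 0.00 for 5 erythrocyte genes. In bulk tissue, fewer cells of a type and less RNA per cell cannot be told apart.

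No ribosomal protein gene was called between overexpression and control. With edgeR's quasi-likelihood test and Benjamini-Hochberg adjustment over 19809 genes, 0 of the 81 tested genes passed an adjusted p of 0.05, where 1 gene in all (0.00505%, Pde5a) did. None of the 81 had an unadjusted p under 0.05 either, against 3.89% of all genes tested. The smallest unadjusted p among them was 0.255 (Rps2), and DESeq2 also called 0 of the 81, where it called 0.419% of all genes and gave 0 of the 81 an unadjusted p under 0.05. The groups overlapped in CPM for each of the 81 genes. Of all genes tested, 8.93% had groups that did not overlap (4.81% higher and 4.11% lower with overexpression). The 81 genes moved together from library to library, as described below, so these counts of 0 do not come from independent genes.

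The fitted differences were small. Over the 80 genes at 1 CPM or more they ran from -0.11 (Rpsa) to 0.07 (Rps20) on the log2 scale, with a median standard error of 0.0861. The 95% intervals of these 80 genes reached from 0.783-fold to 1.27-fold at their widest, so a change of 2-fold in any of them lay outside its interval. The median log2 fold change was -0.0128 over the 49 large subunit genes tested and -0.0240 over the 32 small subunit genes, beside 0.0016 over all genes tested. Of the 81 genes, 23 had a positive and 58 a negative fold change, where 50.6% of all genes were positive. Because the genes moved together from library to library, as described below, these signs are not independent of each other. Without overexpression replicate 2, 1 of the 81 was positive, and without overexpression replicate 3, 64 were.

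**Figure D1:**
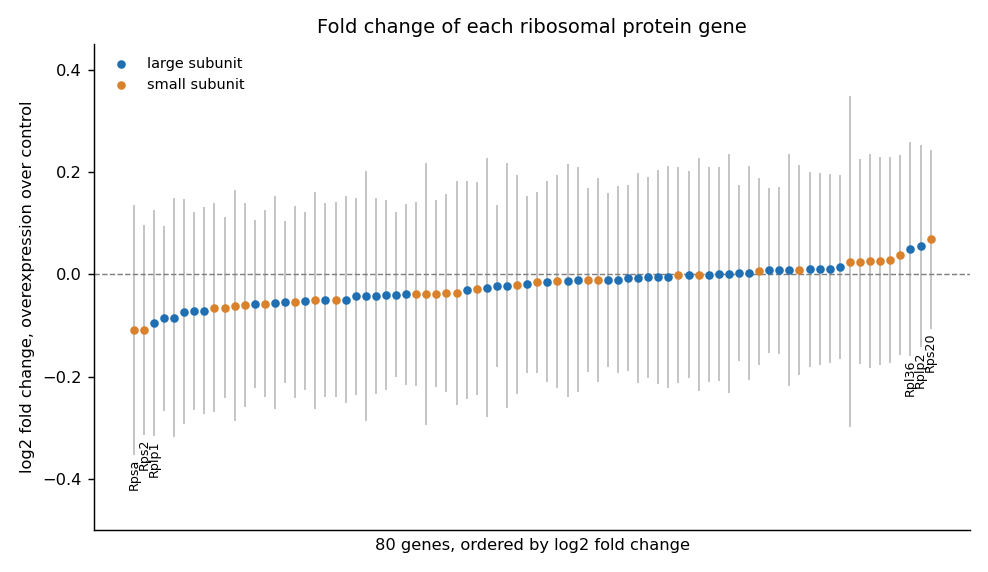
Log2 fold change (overexpression over control, vertical axis) of the 80 ribosomal protein genes at 1 CPM or more in every library, ordered from lowest to highest, with 95% intervals as grey lines and colours for the subunit. Every interval includes 0, and points of both subunits lie between -0.11 and 0.07.

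In the small subunit, the gene with the smallest p was Rps2, whose protein lies at the entry of the messenger RNA channel (chr17:24718116-24721929 on mm10). It stood at 254, 274 and 283 CPM in the controls and at 253, 272 and 227 CPM in the overexpression libraries. Its log2 fold change of -0.11 had a standard error of 0.09, and only overexpression replicate 3 lay clearly below the controls. Rpsa, the laminin receptor precursor (chr9:120127689-120132369), stood at 328, 382 and 356 CPM in the controls and at 330.4, 369 and 289 CPM in the overexpression libraries. For a log2 fold change of -0.11 the standard error was 0.11, and overexpression replicates 1 and 2 lay within the control range.

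Rps20, a protein of the small subunit's head (chr4:3831334-3835665), had the largest positive value of the 80 genes. Its level was 88.5, 97.0 and 93.3 CPM in the controls and 93.7, 105 and 93.3 CPM in the overexpression libraries, a log2 fold change of 0.07 with a standard error of 0.08. Rps28 was at 55.3 to 58.0 CPM in the controls and 52.1 to 63.9 CPM in the overexpression libraries, with a log2 fold change of 0.04. Rps6, the substrate of the S6 kinases that serves as a readout of mTOR activity by its phosphorylation, had 175, 173 and 164 CPM in the controls and 164, 180 and 150 CPM in the overexpression libraries. In all of these genes overexpression replicate 2 was the highest of its group.

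In the large subunit, Rpl17, which lines the exit tunnel of the nascent chain, had the smallest p. It stood at 199, 204 and 208 CPM in the controls and 186, 209 and 179 CPM in the overexpression libraries, with a log2 fold change of -0.09 and a standard error of 0.08. Rpl36 was at 78.6 to 84.2 CPM in the controls and at 83.2, 94.3 and 75.3 CPM in the overexpression libraries, with a log2 fold change of 0.05. Rpl5 and Rpl11 join the 5S ribosomal RNA in a particle that can bind Mdm2 when ribosome assembly is disturbed. Rpl5 was at 195, 214 and 208 CPM and then at 197, 236 and 188 CPM. Rpl11 was at 122, 129 and 129 CPM and then at 121, 141 and 121 CPM. For both genes, 1 overexpression library exceeded the controls and the other 2 lay near or below their lower end.

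The stalk of the large subunit, which recruits the translational GTPases, is built from Rplp0 and from copies of Rplp1 and Rplp2. Rplp1 stood at 265, 300.1 and 278 CPM in the controls and at 259, 293 and 237 CPM in the overexpression libraries, a log2 fold change of -0.10 with a standard error of 0.10. Rplp2 stood at 78.7, 85.8 and 79.8 CPM and at 80.8, 94.2 and 78.9 CPM, with a log2 fold change of 0.06 and a standard error of 0.09. Rplp0 was at 157, 159 and 160.3 CPM in the controls and at 156, 176 and 149 CPM in the overexpression libraries. The proteins of this stalk are neighbours, yet the fitted values of their messages did not take the same sign, and none of the 3 passed the test. The sign of Rplp2 turned when overexpression replicate 2 was left out (-0.03), as did those of Rpl36 (-0.04) and Rps28 (-0.04).

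What most of the genes did share was their highest and lowest library. For each of the 80 genes at 1 CPM or more, log2 CPM was taken relative to that gene's mean over the 6 libraries. The median of these deviations was -0.02, 0.05 and 0.02 in control replicates 1, 2 and 3, and -0.05, 0.14 and -0.13 in overexpression replicates 1, 2 and 3. All 80 genes lay above their own mean in overexpression replicate 2, and 0 did in overexpression replicate 3. Overexpression replicate 2 was the highest library for 67 of the 81 tested genes (82.7%), against 18% of all genes tested. Overexpression replicate 3 was the lowest for 62 (76.5%), against 22.8% of all.

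**Figure D2:**
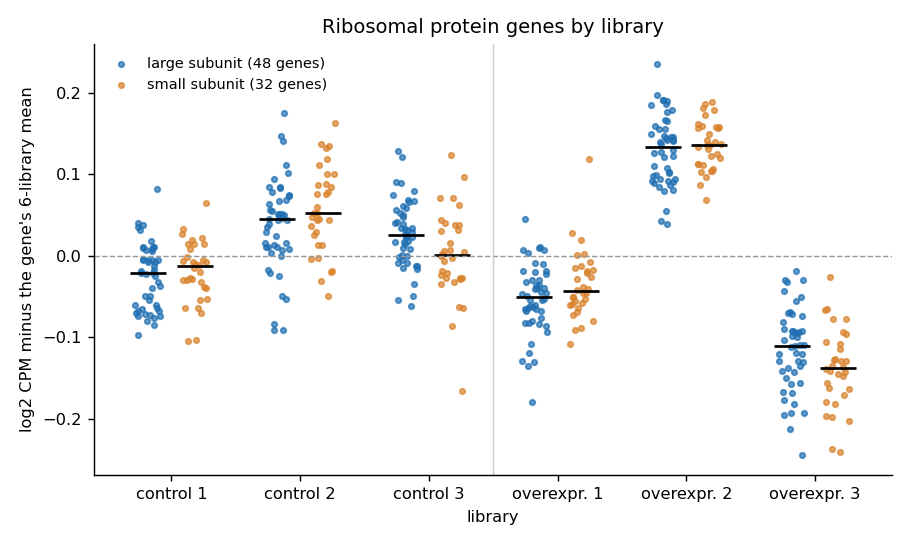
Log2 CPM minus the gene's mean over 6 libraries (vertical axis) for 48 large subunit genes (blue) and 32 small subunit genes (orange) in each library; black bars are medians. All points lie above 0 in overexpression replicate 2 and below 0 in overexpression replicate 3, and the 2 subunits lie together in every library.

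Both subunits took part. Overexpression replicate 2 was the highest library for 41 of 48 large and 26 of 32 small subunit genes, and overexpression replicate 3 the lowest for 35 and 27. The 2 libraries at the extremes belong to the same group, so the movement widened the overexpression group and left the group means close. The median standard deviation of log2 CPM over the 6 libraries was 0.0987 for the 80 genes. Measured relative to the mean of these same genes it was 0.0443. For the 9763 genes at 10 CPM or more, the same step raised the median standard deviation, from 0.109 to 0.140.

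Several library properties had their extremes in these 2 libraries, though none followed the whole order of median deviations, and their part was not tested. Overexpression replicate 2 had the smallest total and the highest choroid plexus sum (3479 CPM), and overexpression replicate 3 the lowest choroid plexus sum (319 CPM). Overexpression replicate 1 had the next highest choroid plexus sum (923 CPM) but the next lowest ribosomal protein deviation (-0.05). Overexpression replicate 3 also had the lowest medium spiny neuron sum (4575 CPM) and the highest sum of 10 cortical glutamatergic markers, 1308 CPM, against 208 to 1018 CPM in the controls. The share of counts from mitochondrially encoded genes was lowest there too, at 9.005%, and lay between 9.58% and 11.6% in the other libraries. When the choroid plexus level entered the fit, the median log2 fold change was -0.12 for the large and -0.14 for the small subunit, with 1 of 81 genes positive and 0 called. That level (mean log2 CPM of the markers) was 5.04 in overexpression replicate 2 and at most 2.77 elsewhere. The fit therefore cannot tell the level apart from that library, whose omission alone gave -0.096 and -0.103. With overexpression replicates 1 and 2 left out together, the medians were -0.13 and -0.15. Only overexpression replicate 3 is then left in its group, so these medians restate how low that library was.

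Taken relative to the mean of the ribosomal protein genes in each library, 7 of the 80 genes had groups that did not overlap, which is 8.75%, against 7.04% of all genes tested on the same scale. Relative values were higher with overexpression for Rplp0, Rplp2 and Rps20 (4.76% of all genes) and lower for Rpl17, Rpl29, Rpl9 and Rplp1 (2.29% of all). Rpl9 and Rpl29 were named after their values were seen. Rps20 lay 0.59, 0.52 and 0.55 log2 units below the member mean in the controls and 0.48, 0.49 and 0.41 below it in the overexpression libraries. Rplp1 lay 0.998, 1.11 and 1.02 above it in the controls and 0.99, 0.98 and 0.94 above it in the overexpression libraries. These shifts are at or under 0.2 log2 units, and the share of such genes was near the background.

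Summed over the genes, the ribosomal proteins took 1.24%, 1.26% and 1.26% of all counts in the controls and 1.22%, 1.38% and 1.162% in the overexpression libraries. The means were 1.25% ± 0.0139 and 1.25% ± 0.112 (SD, n = 3 each; exact two-sided permutation test, p = 1, where 0.1 is the smallest p that 3 against 3 can give). The 3 overexpression libraries thus covered the controls on both sides. The ratio of large to small subunit counts was 1.51, 1.51 and 1.53 in the controls and 1.52, 1.51 and 1.54 in the overexpression libraries. Its means of 1.52 ± 0.00965 and 1.52 ± 0.0129 differed by 0.0048 on the log2 scale (SD, n = 3 each; exact two-sided permutation test, p = 0.6). While the share of counts moved from 1.162% to 1.38% within the overexpression group, this ratio stayed between 1.51 and 1.54.

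Levels of different genes were compared per length, as counts per kilobase of the exons of protein-coding transcripts, scaled to 1000000 over all genes of a library (TPM scale). The median large subunit gene was at 303 ± 8.85 in the controls and 307 ± 13.8 in the overexpression libraries (SD, n = 3 each). The median small subunit gene was at 375 ± 11.1 and 382 ± 37.7. Over the genes at 1 CPM or more, gene means on this scale spread from 22.9 (Rpl7l1) to 1284 (Rplp1) in the large subunit. This range of 56.1-fold was 34.8-fold with principal transcripts and 62.1-fold with all exons. In the small subunit gene means spread from 32.9 (Rps27l) to 1019.8 (Rps29), a range of 31.0-fold. Both low ends are paralogs, of Rpl7 and Rps27, and the stalk holds copies of Rplp1. The ranges therefore cannot be set against the near equal numbers of proteins in a ribosome. With both paralogs left aside, the lowest means were 50.8 (Rpl18) and 41.5 (Rps15a).

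The highest large subunit genes on the TPM scale were Rplp1, Rpl13a, Rpl23a, Rpl13 and Rpl26. Rplp1 stood at 1289, 1336 and 1293 in the controls and 1255, 1358 and 1175 in the overexpression libraries. The next gene, Rpl13a, also known as part of an interferon-induced translation-silencing complex, had a level of 789 to 889 over the 6 libraries, so the 2 did not overlap. The ranges of Rpl23a (681 to 765), Rpl13 (682 to 789) and Rpl26 (638 to 692) overlapped with each other.

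In the small subunit the order began with Rps29, Rps15, Rps21, Rps3a1 and the X-linked Rps4x. Rps29, a short zinc-binding protein, had a level of 967 to 1099.7 on the TPM scale and Rps15 of 954 to 1037. Rps29 lay above Rps15 in each of the 6 libraries, and the order turned with all annotated exons, at 668 for Rps29 and 1145 for Rps15, and with principal transcripts, at 888 and 1079.6. Rps21 (746 to 838), Rps3a1 (619 to 696) and Rps4x (521 to 591) followed with no overlap between them. The stalk genes differed from each other on this scale, with Rplp0 at 223 to 256 and Rplp2 at 176 to 207 beside Rplp1 above 1000. With principal transcripts Rplp2 (380.2) lay above Rplp0 (242). The assigned length sets much of this order: with all annotated exons, 2 of the top 5 large and 4 of the top 5 small subunit genes were the same, and with the principal transcript 3 and 3. Rps15a, at 38.1 to 44.6, is assigned 6000 bases of exons.

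**Figure D3:**
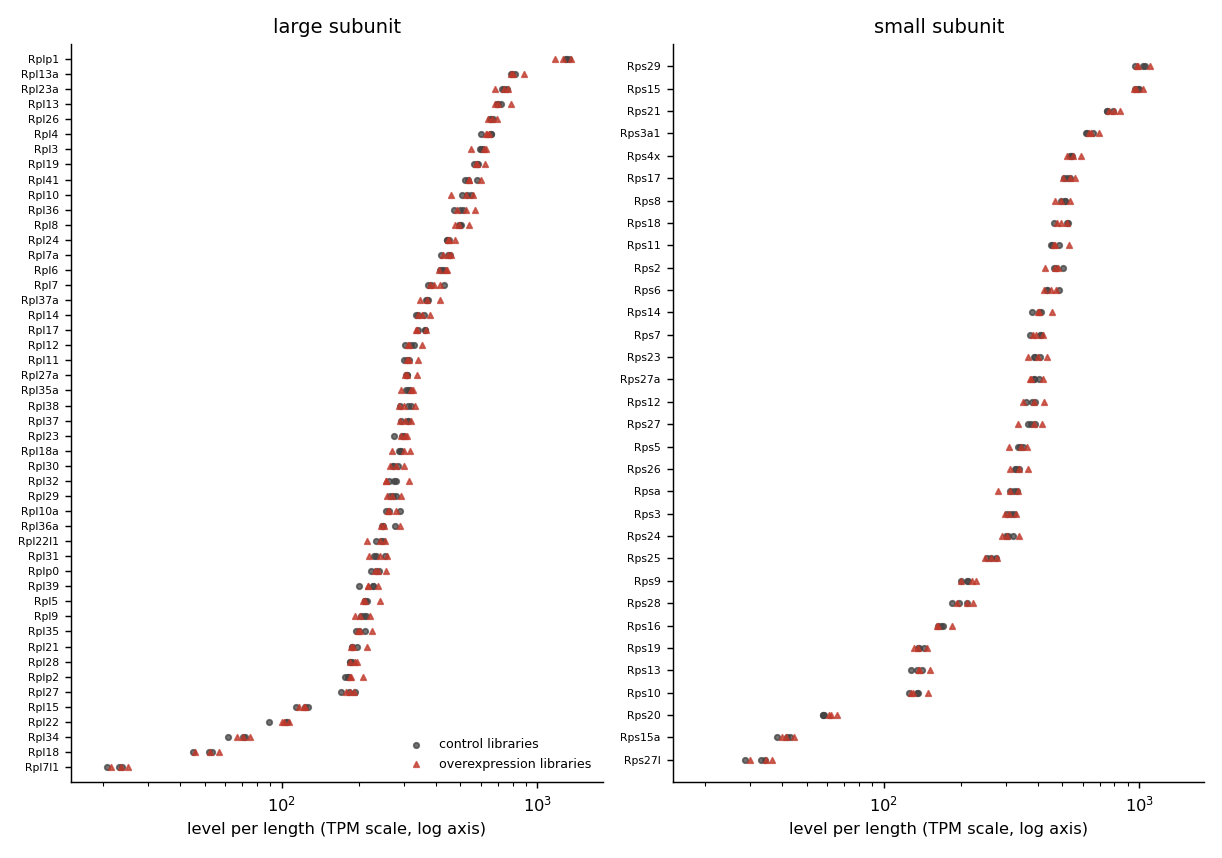
Level per length (TPM scale, logarithmic axis) of 48 large and 32 small subunit genes, 1 row per gene, with 3 control libraries as circles and 3 overexpression libraries as triangles. Levels of different genes spread far more widely than the libraries of any gene, from Rpl7l1 at 22.9 to Rplp1 at 1284.

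Several ribosomal proteins have a paralog that can take the same place in the ribosome, some of them known for expression in particular tissues. Of 8 pairs examined, 5 had enough paralog counts for a test of the log2 ratio of paralog to canonical counts. Rpl10l, a testis-expressed retrogene of the X-linked Rpl10, had no counts, Rpl39l had at most 7 counts in a library, and Rps4l was not matched in the annotation. The groups overlapped in every pair. With 3 against 3 the test cannot give a p under 0.1, so it cannot pass 0.05. The exact two-sided permutation p lay between 0.5 and 0.9, and 0.875 to 0.9 after Benjamini-Hochberg adjustment over the 5 pairs (n = 3 each).

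Rpl22l1 is the paralog of Rpl22, an RNA-binding protein of the large subunit that can regulate its paralog. Rpl22l1 took 39.9% ± 2.77 of the pair's counts in the controls and 38.5% ± 1.74 in the overexpression libraries (SD, n = 3 each). Per length of coding-transcript exons the paralog was the higher of the pair in all 6 libraries, at 216 to 253 on the TPM scale against 89.0 to 107 for Rpl22. This order turned with the length of all annotated exons, at 78.6 for Rpl22l1 and 83.5 for Rpl22, so it depends on the length assigned.

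Rpl36al took 35.1% ± 1.70 of its pair's counts in the controls and 36.2% ± 1.40 in the overexpression libraries (SD, n = 3 each). Its coding sequence is very similar to that of Rpl36a, so how reads were assigned between them is uncertain. Rpl7l1 took 12.5% ± 0.832 and 12.9% ± 0.771. Rps27l, known as a target of p53, took 7.49% ± 0.501 and 7.82% ± 0.447 beside Rps27. Rpl3l, which takes the place of Rpl3 in heart and skeletal muscle, made up 0.0951% ± 0.0390 and 0.103% ± 0.0212, on counts of 24, 17 and 10 in the controls and 20, 17 and 11 in the overexpression libraries. The log2 differences were -0.09 for Rpl22l1, 0.07 for Rpl36al, 0.04 for Rpl7l1, 0.07 for Rps27l and 0.18 for Rpl3l, each within the spread of its libraries.

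**Figure D4:**
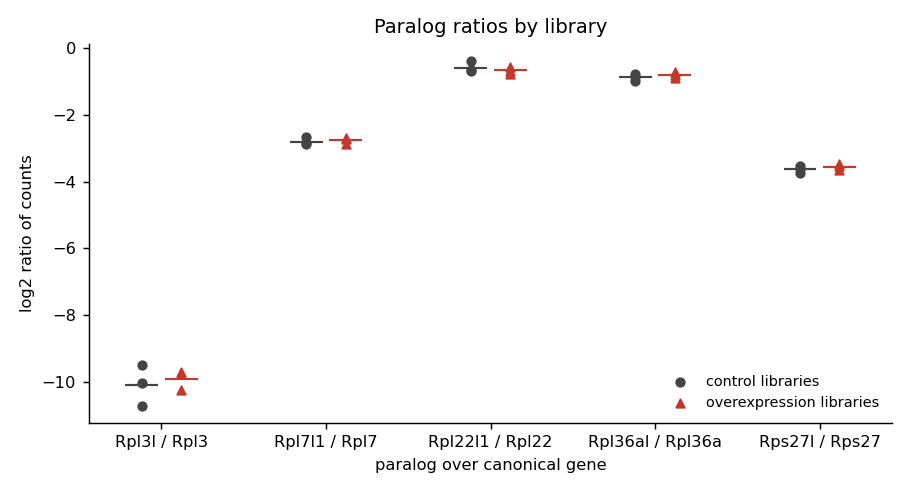
Log2 ratio of paralog to canonical counts (vertical axis) for the 5 pairs tested, with control libraries as grey circles, overexpression libraries as red triangles and bars at the group means. The groups overlap in every pair, and the ratios run from Rpl3l near -10 to Rpl22l1 and Rpl36al near -1.

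Ribosomal protein messages have given rise to many processed pseudogenes, whose sequences are close to the parent's. By symbol (the parent's name followed by -ps), the annotation named 298 pseudogenes after 60 of the 83 genes. A few of them, such as Rpl9-ps6 and Rpl10-ps3, are labelled protein-coding, and any pseudogenes under other names were not included. Of the 298, 72 had no counts, 114 passed the filter and 0 were called, with a median log2 fold change of -0.03. Their counts together amounted to 7.05%, 6.99% and 6.95% of the members' counts in the controls and 6.99%, 7.09% and 6.96% in the overexpression libraries. The means were 7.0% ± 0.0525 and 7.01% ± 0.0693 (SD, n = 3 each; exact two-sided permutation test, p = 0.7). Single pseudogenes held more: Rps6-ps4 had 35.3% to 38.5% as many counts as Rps6, Rpl31-ps8 33.5% to 38.1% of Rpl31, and Rpl3-ps1 17.4% to 18.1% of Rpl3. Whether those reads come from the pseudogene or its parent cannot be told from gene counts. The levels of these parents may be too low, or shared reads may have been counted at several copies, which was not tested. Rps19-ps1 and Rps19-ps2 had identical counts in every library (39, 40 and 38 in the controls, 41, 37 and 40 in the overexpression libraries).

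Ribosomal protein genes also carry small nucleolar RNAs in their introns, which guide modification of ribosomal RNA. The annotation placed 58 such RNAs inside 30 of the 83 genes, 39 in 20 large and 19 in 10 small subunit genes, with 5 in Rpl4. The genes are scattered: 14 lie on chromosome 7, 8 on chromosome 17 and 4 on the X chromosome (Rpl10, Rpl36a, Rpl39 and Rps4x). Their principal transcripts are short, with a median of 827 bases against 2624 bases over all genes tested.

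Genes that work with the ribosome were read in the same fit, and 0 genes of each list below were called. The 24 other TOP and ribosome-associated genes had 9 positive fold changes and a median of -0.01. Their median deviations were -0.02, 0.06 and -0.02 in the controls and -0.03, 0.08 and -0.10 in the overexpression libraries. Their highest and lowest libraries were those of the ribosomal proteins, with smaller deviations there, and the translation factors below had the same extremes. Of the left-out family members, Fau stood at 108 to 118 CPM in the controls and 109, 130.2 and 109.8 CPM in the overexpression libraries. Rack1 was at 138 to 149 CPM and then at 137, 159 and 131 CPM.

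Among the 24 translation factors, 11 were positive and the median was -0.01. Their highest and lowest libraries were also overexpression replicates 2 and 3, at median deviations of 0.025 and -0.045. This list shares genes with the other TOP list, among them Eef2 and Eef1g. The smallest p belonged to Eef2, the translocase that moves the ribosome along the message and itself a TOP gene. It stood at 1038, 1065 and 1077 CPM in the controls and 967, 999 and 938 CPM in the overexpression libraries. Its groups did not overlap, as in 8.93% of all genes tested (4.11% lower with overexpression). With a log2 fold change of -0.13 and a standard error of 0.07, its unadjusted p in the edgeR test was 0.104. Eef1g was at 170 to 180 CPM and 157 to 177 CPM. The 78 mitochondrial ribosomal protein genes, which build the separate ribosome of mitochondria, had 50 positive values and a median of 0.02, and their highest library was also overexpression replicate 2 (median deviation 0.06).

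Upstream of the ribosome, 21 of 32 ribosome biogenesis genes were positive and the median log2 fold change was 0.03. Bop1, a factor of large subunit assembly, was at 29.8, 32.4 and 33.2 CPM in the controls and 35.5, 33.9 and 35.4 CPM in the overexpression libraries. Its groups did not overlap, as was the case for 8.93% of all genes tested. Heatr1, which acts in ribosomal RNA transcription and processing, was at 20.4 to 23.8 CPM and 21.7 to 26.7 CPM. Of 14 genes of the RNA polymerase I machinery, 6 were positive and the median was 0.00. Of 19 genes that carry growth signals to ribosomal protein messages, 9 were positive and the median was 0.00. The inhibitory mTOR partner Deptor had 30.1 to 35.5 CPM in the controls and 33.3 to 39.8 CPM in the overexpression libraries, and the S6 kinase Rps6kb2 21.4 to 24.3 CPM and 24.0 to 28.6 CPM. Larp1 and Mtor themselves overlapped between the groups, at 101 to 120 CPM and 95.02 to 114 CPM for Larp1 and at 86.4 to 97.2 CPM and 86.7 to 91.8 CPM for Mtor.

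**Figure D5:**
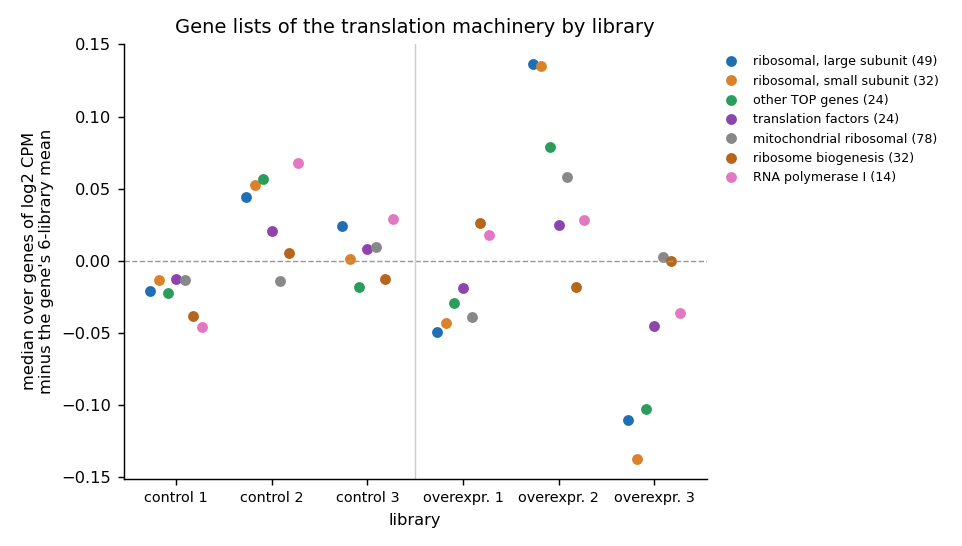
Median over the genes of each list of log2 CPM minus the gene's mean over 6 libraries (vertical axis), by library, with the number of genes tested in brackets and points offset sideways for legibility. Both ribosomal subunits lie near 0.14 in overexpression replicate 2 and at -0.11 and -0.14 in overexpression replicate 3, and the other TOP genes lie nearest to them.

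Transcript length was also read, because the ribosomal protein messages are short. The 411 other protein-coding genes under 1000 bases at 10 CPM or more had 277 positive fold changes and a median of 0.03. Their median deviations were -0.02, -0.03 and 0.02 in the controls and -0.05, 0.09 and 0.00 in the overexpression libraries. They were thus also highest in overexpression replicate 2, and unlike the ribosomal protein genes they were at their own mean in overexpression replicate 3. The difference between the lists was not tested.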

How the data were processed

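The data were whole-number counts per Ensembl gene deposited by the authors, 1 file for each of 6 striatum samples, with no normalization. Per the labels' protocols, libraries were strand-specific (TruSeq). FastQC 0.11.5, STAR 2.5.3a, Cuffnorm, DESeq 1.16.1 and build mm10 are named, per the submitters' processing notes; the program that counted reads, how it used strand, and its annotation are not given in the sources used. Counts of overlapping genes and near-identical copies are therefore uncertain. Of 55335 identifiers, 55154 matched GENCODE M21, and the 181 others held at most 0.0129% of a library's counts.

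Groups were taken from the sample titles. The main test was edgeR 4.0.16 in R 4.3.3 with TMM factors, filterByExpr, robust quasi-likelihood fits and p-values adjusted by Benjamini-Hochberg over 19809 genes (threshold 0.05, two-sided). Standard errors are the absolute log2 fold change over the square root of F, and 95% intervals use the test's degrees of freedom. CPM used TMM-adjusted library sizes, and log2 CPM a prior count of 2. Paralog ratios had 0.5 added to both counts and needed a mean of 10 paralog counts. Single values per library were compared by exact permutation (scipy 1.17.1). DESeq2 1.42.0 and limma 3.58.1 (voom) were alternatives. The scripts were tested on simulated data. Replicates of a group differed beyond counting noise (chi-square over its degrees of freedom, 20.9 to 54.9), so none was taken for a repeat of another library.

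The genes, the lists and the alternatives were chosen with earlier results of these data known. Named were the 5 highest genes of each subunit per length and the 2 lowest tested, in each direction the 4 with the smallest p, the paralog pairs, landmark genes (Rps6, Rpsa, Rplp0 to Rplp2, Rpl5, Rpl11), the genes that failed the filter, and up to 2 genes of each other list with the smallest p. Larp1, Mtor, Fau and Rack1 were added for their roles. Promoter windows came from RefSeq (GRCm38.p6).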

Additional observations from a re-analysis of the deposited data

How the results depend on the processing

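The count of 0 ribosomal protein genes called held under all 18 alternatives run. The count of all genes called was 1, and became 83 with DESeq2, 6 with limma-voom, 3 without the low-count filter, 3 with the replicate block, 1 to 2 with 1 library left out, 5 with overexpression replicates 1 and 2 left out together and 2 with replicates 2 and 3 left out together. DESeq2 also called 2 genes of the other lists, Prkcd and Cxcr6. The labels state no pairing by replicate number. Deviations of same-numbered samples correlated at -0.02, 0.03 and 0.29, and those of other pairs at -0.34 to 0.35. With so few samples these values cannot settle whether the samples were paired. The subunit medians under the block were -0.0185 (large) and -0.0294 (small). Leaving out 1 library moved the median log2 fold change between -0.10 and 0.03 for either subunit, positive without overexpression replicate 3 and, for the large subunit, without replicate 1. Without overexpression replicates 1 and 2 the medians were -0.125 and -0.150, and with the choroid plexus covariate -0.120 and -0.136. The difference in share of counts, -0.0013 percentage points, ran from -0.0635 to 0.0446 with 1 library left out. The subunit ratio ran from -0.00221 to 0.00978 in log2 and was -0.000751 without overexpression replicates 2 and 3. With 1 library left out, the log2 difference ran from -0.126 to 0.473 for Rpl3l, from -0.144 to 0.00957 for Rpl22l1. It was -0.163 for Rpl3l without overexpression replicates 1 and 2, and -0.0718 for Rpl7l1 and -0.0158 for Rpl36al without replicates 2 and 3. The median level per length of 304.9 for the large subunit became 214.9 with all exons, 366.7 with principal transcripts and 417 without mitochondrially encoded genes. That of the small subunit, 378, became 208 and 517 with all exons and without mitochondrially encoded genes. Rplp2, Rpl36 and Rps28 turned negative without overexpression replicate 2 (-0.0286, -0.0387, -0.0351; up to 0.101, 0.122 and 0.108 with another library left out), without replicates 1 and 2 (-0.0485, -0.115, -0.122) and with the choroid plexus covariate (-0.0466, -0.0783, -0.0828), and Rplp2 without replicates 2 and 3 (-0.00704). Leaving out replicates 2 and 3 together, the principal transcript length and TMM-adjusted sizes for the share of counts were chosen after seeing the data. With 1 overexpression library left, that library is assumed to vary like the controls. Depth limits Rpl3l, Rpl39l and Rpl10l most. Rps27l, at 263 to 354 counts per library, had a standard error of 0.14, beside a median of 0.0861 over the 80 genes at 1 CPM or more.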
